A study of Mus musculus with 5 samples.

Results

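The genes described here write, erase and read DNA methylation: the methyltransferase genes Dnmt1, Dnmt3a and Dnmt3b, the dioxygenase genes Tet1, Tet2 and Tet3, and the methyl-CpG-binding domain genes Mbd1, Mbd2 and Mbd3. These 9 genes were taken by symbol from the region lists and stand among 21031 protein-coding genes. The study profiled chromatin in neuronal nuclei from the striatum of C57BL/6 mice aged 8 weeks, sorted on the neuronal antigen NeuN and labelled as medium spiny neurons, the GABAergic projection neurons of the striatum. ChIP-seq used antibodies to RNA polymerase II (Pol II) and to 3 histone marks: H3K4me3 of promoters, H3K27ac of active promoters and enhancers, and H3K27me3, which Polycomb repressive complex 2 lays down. Each antibody had 1 library, beside 1 of input, all from the same kind of nuclei with no treatment or genotype contrast named, so no value has a replicate and no test across samples was possible. NeuN marks neurons in general, and the labels do not say how many animals were pooled.

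DNA methylation in mammals is placed mainly on cytosines of CG dinucleotides. Dnmt1 copies the pattern onto the new strand after replication, while Dnmt3a and Dnmt3b set it on unmethylated DNA. The Tet enzymes oxidise 5-methylcytosine, first to 5-hydroxymethylcytosine, which is abundant in neurons. Mbd1 and Mbd2 bind methylated CG sites, and Mbd2 and Mbd3 are alternative subunits of the NuRD complex, which joins nucleosome remodelling with histone deacetylation. In postmitotic neurons Dnmt3a is also known for methylating cytosines outside CG.

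The sequences before the starts of 6 promoters are shown first, because the genes differed in which marks were listed for them. The sequences are from another genome build than the region lists (mm9) and were not placed in the regions. Each is the 250 bases upstream of a start, written in the direction of transcription, from the RefSeq table of build GRCm38.p6, with every CG dinucleotide in capitals. Dnmt3a appears with windows 1 and 3 of its 3 windows, at chr12:3806730-3806979 and chr12:3891494-3891743 (plus strand). The others are Tet2 at chr3:133544391-133544640 (minus strand), Tet3 at chr6:83441679-83441928 (minus strand), Dnmt3b at chr2:153649199-153649448 (plus strand) and Tet1 at chr10:62887325-62887574 (minus strand).
Dnmt3a, window 1: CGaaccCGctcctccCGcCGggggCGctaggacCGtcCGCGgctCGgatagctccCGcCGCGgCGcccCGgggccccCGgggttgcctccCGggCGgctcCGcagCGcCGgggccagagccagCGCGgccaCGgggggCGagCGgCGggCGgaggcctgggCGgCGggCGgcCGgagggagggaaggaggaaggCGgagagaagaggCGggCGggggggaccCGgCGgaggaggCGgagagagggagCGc
Dnmt3a, window 3: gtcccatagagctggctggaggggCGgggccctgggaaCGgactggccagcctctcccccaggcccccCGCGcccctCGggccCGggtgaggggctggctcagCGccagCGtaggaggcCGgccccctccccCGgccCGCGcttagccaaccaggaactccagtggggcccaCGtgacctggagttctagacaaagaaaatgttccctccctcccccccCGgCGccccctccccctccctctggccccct
Tet2: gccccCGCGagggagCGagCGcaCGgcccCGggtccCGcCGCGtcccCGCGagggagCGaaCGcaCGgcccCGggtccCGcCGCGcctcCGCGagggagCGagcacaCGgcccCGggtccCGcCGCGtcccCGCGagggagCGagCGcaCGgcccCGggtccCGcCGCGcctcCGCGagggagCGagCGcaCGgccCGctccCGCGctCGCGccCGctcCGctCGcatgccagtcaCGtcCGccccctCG
Tet3: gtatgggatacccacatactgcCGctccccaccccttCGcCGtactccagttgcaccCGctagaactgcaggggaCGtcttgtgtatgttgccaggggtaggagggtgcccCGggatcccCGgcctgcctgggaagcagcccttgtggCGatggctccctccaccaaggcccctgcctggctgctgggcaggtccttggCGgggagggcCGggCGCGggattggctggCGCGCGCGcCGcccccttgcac
Dnmt3b: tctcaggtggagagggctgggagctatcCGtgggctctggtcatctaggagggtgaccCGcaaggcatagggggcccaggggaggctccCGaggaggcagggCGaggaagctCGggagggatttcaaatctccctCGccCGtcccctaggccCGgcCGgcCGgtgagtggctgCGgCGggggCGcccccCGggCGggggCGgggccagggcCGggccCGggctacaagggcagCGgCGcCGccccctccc
Tet1: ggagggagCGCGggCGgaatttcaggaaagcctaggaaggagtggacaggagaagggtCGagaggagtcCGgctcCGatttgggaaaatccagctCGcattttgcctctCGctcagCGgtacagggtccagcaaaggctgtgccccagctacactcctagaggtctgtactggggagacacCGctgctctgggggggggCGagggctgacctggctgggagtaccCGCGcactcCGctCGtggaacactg

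The 9 genes fell into 3 patterns. Dnmt1, Dnmt3a, Tet2, Tet3, Mbd1, Mbd2 and Mbd3 had regions of H3K4me3, H3K27ac and Pol II and none of H3K27me3, a combination found at 34.8% of all coding genes. Dnmt3b had H3K4me3 and H3K27me3 with neither H3K27ac nor Pol II, as had 13.4% of coding genes. Tet1 had H3K27me3 alone, as had 18.2%. One listed region was enough for a gene to count as marked, and a gene counted as unmarked has no listed region in the files used here.

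By antibody, H3K4me3 was listed at 8 of 9 genes (88.9%, exact 95% interval 51.8 to 99.7%), against 68.4% of coding genes. H3K27ac was listed at 7 of 9 (77.8%, 40.0 to 97.2%), against 51.5%, and Pol II at the same 7, against 41.7%. H3K27me3 was listed at 2 of 9 (22.2%, 2.81 to 60.0%), against 42.5%. Each of these 4 intervals contained the share of all coding genes, so with 9 genes the shares were not told apart from the background. The intervals cover counting error over genes only. H3K4me3 with H3K27ac and Pol II, whatever the H3K27me3, occurred at 7 of 9 genes and 40.7% of coding genes, and H3K4me3 with H3K27me3 at 1 of 9 and 24.2%.

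**Figure D1:**
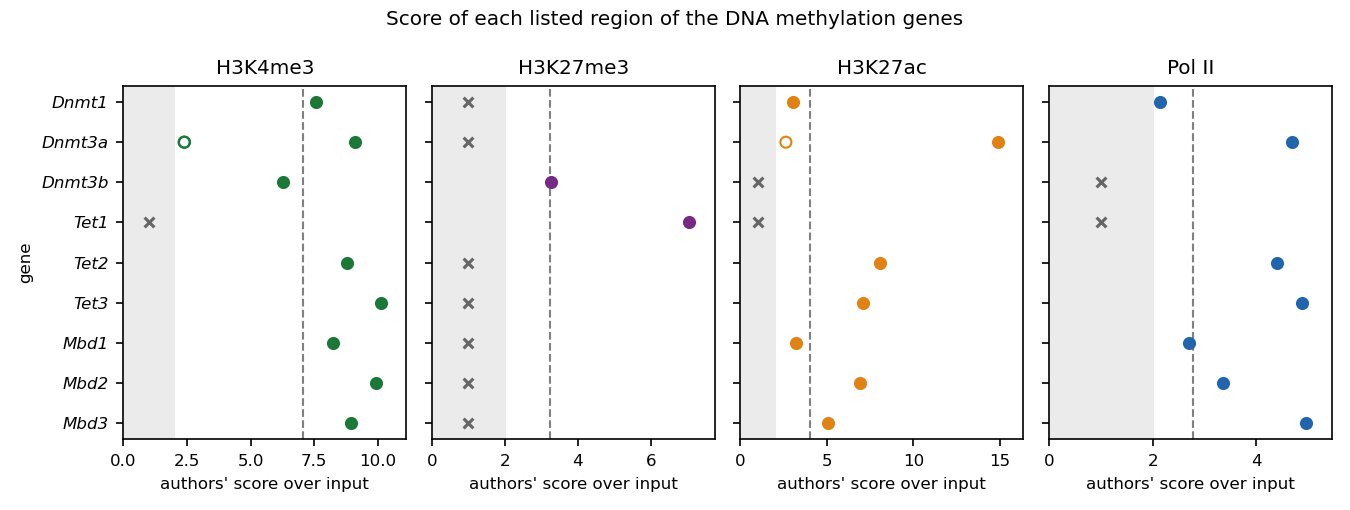
The authors' score over input (x axis, 1 panel per antibody, each with its own scale) of every listed region of the 9 genes (y axis). Filled points are the highest-scoring region of a gene, open points its other regions, crosses in the grey band below the lowest listed score of 2 are genes with no listed region, and dashed lines are the median of the whole list; Dnmt3a has the highest H3K27ac score of the 9 at 14.9, and only Dnmt3b and Tet1 have an H3K27me3 point.

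Among the writers, Dnmt3a stood out by H3K27ac. Its main region scored 14.9 and ranked 12th of 9781 H3K27ac regions, where the median region scored 4.03. The scores are the authors' own, on a scale that the sources used here do not give, and they are read only within 1 list. The same start had an H3K4me3 score of 9.09 (median of the list 7.05) and a Pol II score of 4.68 (median 2.78), which was higher than 95.7% of Pol II regions.

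The H3K4me3 region at this start of Dnmt3a was 24.4 kb wide (mm9, chr12:3803801-3828200), listed for the transcript of isoform 1. In the H3K4me3 list, 2.43% of regions exceeded 20 kb. The H3K27ac region began at the same position and covered 9.3 kb, and the Pol II region covered 6.5 kb. H3K4me3 therefore ran 15.1 kb further downstream than H3K27ac and 17.3 kb further than Pol II, in the direction of transcription. On the upstream side the edges lay within 0.6 kb of each other.

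Dnmt3a had a second set of regions at the start of isoform 2, the shorter form that lacks part of the N-terminus. These were 2 H3K4me3 regions of 6.4 kb and 9.4 kb with scores of 2.39 and 2.41, both near the lowest listed score of 2 and higher than only 5.42% and 5.54% of that list. They began 80.0 kb and 88.7 kb after the start of the first Dnmt3a region, which ended 55.6 kb and 64.3 kb before them. The gap from the end of the 6.4 kb region to the start of the 9.4 kb region was 2.3 kb. An H3K27ac region of 5.5 kb with a score of 2.64 began 0.2 kb after the end of the 6.4 kb region and overlapped the 9.4 kb region by 3.4 kb. No Pol II region was listed there. Of the 14377 coding genes with H3K4me3, 0.146% had 3 or more separate regions, as Dnmt3a had, and 3.3% had 2 or more.

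Dnmt1, the maintenance methyltransferase gene, carried the same 3 marks as Dnmt3a with low scores of H3K27ac and Pol II. Its H3K4me3 region of 5.8 kb (chr9:20753901-20759700) scored 7.56, above the median of the list. The H3K27ac region of 4.9 kb scored 3.04, higher than only 25.2% of that list, and the Pol II region of 4.0 kb scored 2.14, close to the lowest listed score. By the best-scoring region of each of the 7 genes with Pol II, Dnmt1 had the lowest score and the narrowest region of both H3K27ac and Pol II. Its 3 regions were nested, with all of the Pol II region inside the H3K27ac region and all of that inside the H3K4me3 region.

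Dnmt3b, the other de novo methyltransferase gene, had an H3K4me3 region of 5.7 kb (chr2:153472601-153478300) that scored 6.26, the lowest best score of the 8 genes with H3K4me3. It was listed for 5 transcripts of the gene. An H3K27me3 region of 30.2 kb (chr2:153459801-153490000) surrounded it, reaching 12.8 kb further upstream and 11.7 kb further downstream. Its score of 3.27 was near the median of that list, 3.24. Whether both marks were on the same nuclei or on different nuclei of the sorted pool cannot be told apart.

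The H3K27me3 region of Dnmt3b was also listed for Commd7, the gene on its upstream side and on the opposite strand. Commd7 had its own H3K4me3 region of 5.5 kb (score 6.28) and an H3K27ac region of 4.8 kb (score 2.51), which overlapped the H3K27me3 region by 1.2 kb and 0.9 kb. The H3K27ac region of Commd7 ended 11.9 kb before the H3K4me3 region of Dnmt3b. The 30.2 kb region was thus listed for a gene with H3K27ac at its edge and for one with no listed H3K27ac in its middle.

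The erasers differed among themselves. Tet2 and Tet3 had H3K4me3, H3K27ac and Pol II. Tet1 had 1 region, H3K27me3 over 18.3 kb (chr10:62339001-62357300), with a score of 7.05 that was higher than 89.7% of H3K27me3 regions. No region of H3K4me3, H3K27ac or Pol II was listed for Tet1 or for any other gene within 20 kb of that region in the files used here. Tet1 and Dnmt3b thus differed in H3K4me3 and in the H3K27me3 score, and Dnmt3b had the wider H3K27me3 region.

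Tet3 had the highest H3K4me3 score of the 9 genes, 10.1, and the widest H3K4me3 region, 24.7 kb (chr6:83370601-83395300). H3K27ac covered 7.3 kb with a score of 7.07, and Pol II covered 6.2 kb with a score of 4.88, higher than 96.7% of Pol II regions. As at Dnmt3a, H3K4me3 extended into the gene: it ran 16.4 kb further downstream than H3K27ac and 1.0 kb further upstream. All 3 regions were also listed for B230319C09Rik, a long noncoding RNA gene on the opposite strand, so the parts of these transcripts in the signal cannot be told apart.

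Tet2 had narrower regions than Tet3 in all 3 lists. Its H3K4me3 region covered 7.1 kb with a score of 8.80, its H3K27ac region 6.2 kb with 8.08, and its Pol II region 5.4 kb with 4.39. The H3K27ac score was higher than 92.5% of that list and exceeded that of Tet3. The H3K4me3 region exceeded the H3K27ac region by 0.1 kb upstream and 0.8 kb downstream, so the downstream extension seen at Tet3 and Dnmt3a was not present.

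**Figure D2:**
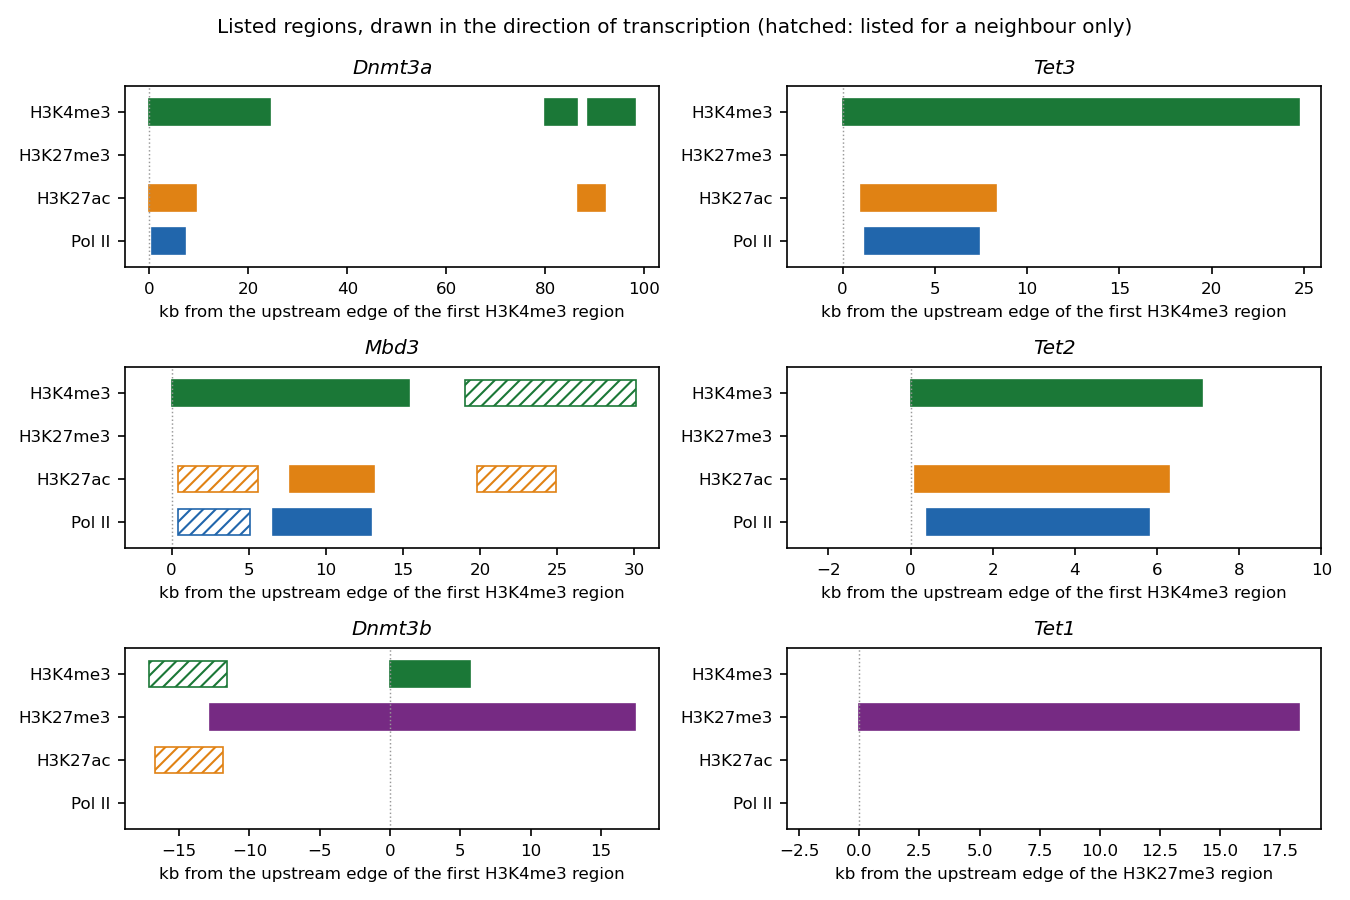
Position of every listed region (rows, 1 per antibody) at 6 of the genes, in kb from the upstream edge of the first H3K4me3 region (for Tet1, of the H3K27me3 region), drawn in the direction of transcription. Filled boxes are regions listed for the gene and hatched boxes are listed for a neighbour only; H3K4me3 runs past H3K27ac by 15.1 kb at Dnmt3a and 16.4 kb at Tet3, and the H3K27me3 box of Dnmt3b contains its H3K4me3 box.

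All 3 readers carried H3K4me3, H3K27ac and Pol II. Mbd2 had the highest H3K4me3 and H3K27ac scores of the readers, 9.93 and 6.94, over regions of 10.5 kb and 9.3 kb. Its H3K27ac region began 1.6 kb upstream of the H3K4me3 region, the only case among the main regions of the 7 genes in which H3K27ac reached past H3K4me3. The Pol II score of Mbd2 was 3.35 over 5.3 kb.

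Mbd3, which encodes the NuRD subunit that binds methylated DNA weakly, had the highest Pol II score of the 9 genes, 4.96 over 6.3 kb, higher than 97.2% of that list. Its H3K4me3 score was 8.92 and its H3K27ac score 5.06 over 5.4 kb. The H3K4me3 region was 15.4 kb wide (chr10:79856901-79872300), but it was shared with Uqcr11, a gene of mitochondrial complex III. Within it Uqcr11 had its own H3K27ac region of 5.2 kb (score 4.18) and its own Pol II region of 4.7 kb (score 2.38), 2.1 kb and 1.5 kb from those of Mbd3. The width of this H3K4me3 region therefore covers the starts of both genes.

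Mbd1, the reader that also has CXXC zinc fingers, had an H3K4me3 score of 8.24 over 6.2 kb. H3K27ac scored 3.22 over 5.5 kb and Pol II 2.69 over 5.0 kb, both below the medians of their lists. Mbd1 and Dnmt1 were the 2 genes with all 3 of these marks whose H3K27ac and Pol II scores both fell below the list medians, while their H3K4me3 scores lay above it.

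**Figure D3:**
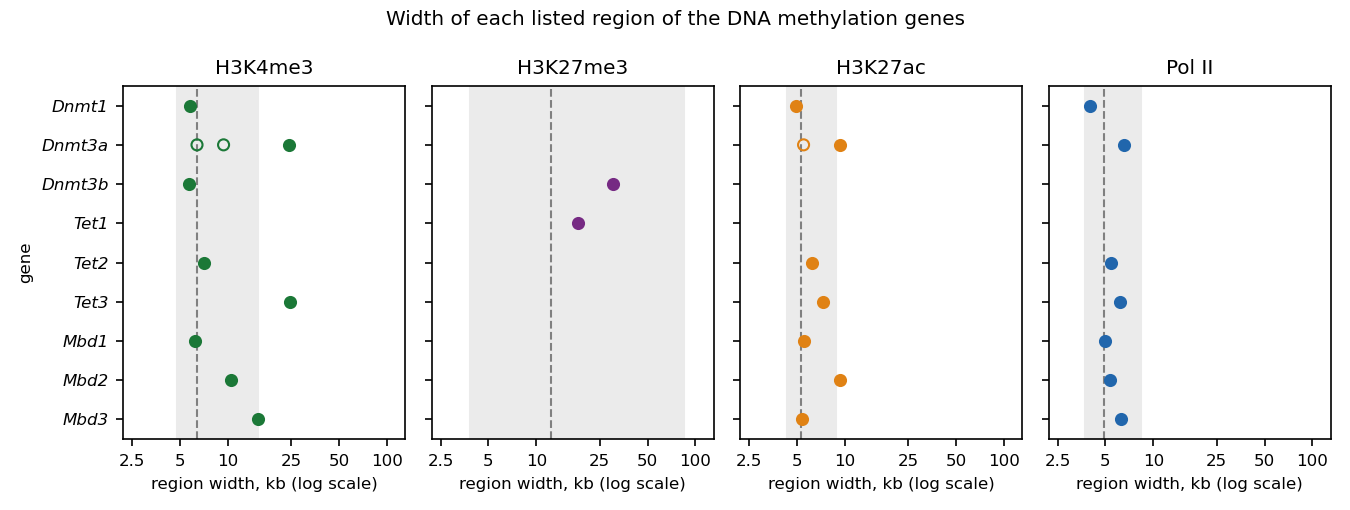
Width of every listed region of the 9 genes in kb (x axis, log scale, 1 panel per antibody). Filled points are the widest region of a gene, open points its other regions, dashed lines the median of the list and grey bands its 5th to 95th percentile; the H3K4me3 regions of Tet3 (24.7 kb) and Dnmt3a (24.4 kb) lie outside the band, as do the 9.3 kb H3K27ac regions of Dnmt3a and Mbd2.

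Over the genes with a listed region, the median best score was 8.86 for H3K4me3 (8 genes), 6.94 for H3K27ac (7 genes) and 4.39 for Pol II (7 genes). Over all coding genes with the same mark the medians were 7.32, 4.06 and 2.79. The median widths of the widest region were 8.8 kb, 6.2 kb and 5.4 kb, against 6.6 kb, 5.3 kb and 4.9 kb. These medians describe the genes with a region, and no test was made of the differences.

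The CG content of the start windows ranged widely among the genes. Of the 9 genes, 7 had windows in the table, 11 in all. Mbd1 and Mbd2 were not matched. The median over 32851 windows was 6 CG dinucleotides in the 250 bases, and 92.1% had at least 1. Tet2 had 51, where the highest count of any window was 56. The printed Tet2 sequence shows a CG-rich unit repeated several times. The first and second windows of Dnmt3a, which overlap, had 38 and 40.

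Dnmt3b, with both H3K4me3 and H3K27me3, had 21 CG dinucleotides in its window. Among genes with H3K27ac and Pol II, Tet3 with 17 and Mbd3 with 14 had fewer. Tet2 with 51, the first and second Dnmt3a windows with 38 and 40, and the third Dnmt1 window with 26 had more. Tet1, with H3K27me3 alone, had 15. The third Dnmt3a window also had 15, and starts 84.8 kb after the start of the first in GRCm38.p6, where the weak mm9 regions of isoform 2 began 80.0 kb and 88.7 kb after the start of the first region. The table names no transcript, and positions were not converted between builds. The 3 windows of Dnmt1 had 2, 7 and 26.

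The start windows were also searched for 2 other motifs. The GC box GGGCGG, bound by Sp1-family factors, was present on either strand in 9 of 11 windows, against 32.7% of all windows. Each match contains a CG dinucleotide. The 11 windows come from 7 genes and are not independent. Windows 1 and 2 of Dnmt3a overlap, and a match in the shared stretch counts in both. The 3 Dnmt3a windows held 5, 4 and 1 matches, that of Dnmt3b 3, the third Dnmt1 window 2, and those of Tet1, Tet2, Tet3 and Mbd3 1 each. CCAAT, the motif of NF-Y, was present on either strand in 4 of 11 windows, near the 33.8% of all windows. The first Dnmt1 window held 4 matches, the third Dnmt1 window and that of Mbd3 3 each, and that of Tet3 1. These are matches of letters and not measured binding.

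**Figure D4:**
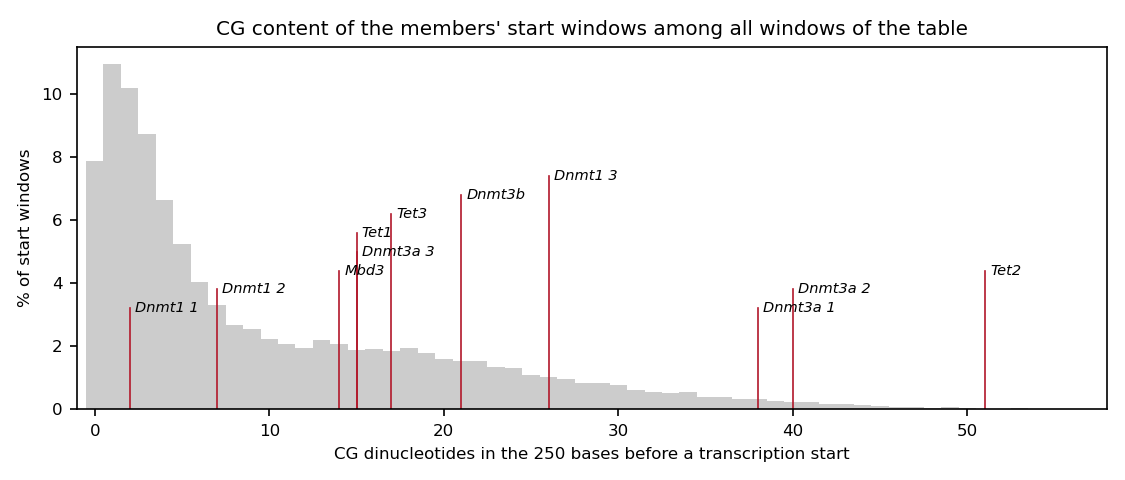
Number of CG dinucleotides in the 250 bases before a start (x axis) for all 32851 windows of the RefSeq table (grey bars, percent of windows) and for the 11 windows of the 9 genes (red lines, with the number of the window where a gene has several). Tet2 with 51 and the first and second Dnmt3a windows with 38 and 40 lie in the right tail, and Tet1 and the third Dnmt3a window share a count of 15.

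A list of 20 other genes of DNA methylation was counted in the same way. All 20 had H3K4me3, 18 had H3K27ac, 18 had Pol II and 3 had H3K27me3. Among all coding genes the shares were 68.4%, 51.5%, 41.7% and 42.5%, in the same order. The 2 genes with H3K27me3 and no H3K27ac or Pol II were Uhrf1, whose protein brings Dnmt1 to hemimethylated DNA, and Dnmt3l, the catalytically inactive partner of Dnmt3a and Dnmt3b in germ cells. Uhrf1 had H3K4me3 over 6.2 kb with a score of 5.88 and H3K27me3 over 10.1 kb with a score of 5.11. Dnmt3l had H3K4me3 with a score of 2.27 and H3K27me3 over up to 63.1 kb with a score of 7.85. Uhrf2 carried all 4, with H3K27me3 over 5.8 kb and a score of 2.57.

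The other 17 had H3K4me3, H3K27ac and Pol II without H3K27me3, as had 34.8% of all coding genes. They included Mbd4 and the zinc finger genes Zbtb4, Zbtb33 and Zbtb38, whose proteins bind methylated DNA, Mbd5 and Mbd6, which encode proteins with an MBD-like domain, the thymine DNA glycosylase gene Tdg, the 3 Gadd45 genes, and Ogt, whose protein binds Tet enzymes. Across this list and the 9 genes, those with no listed H3K27ac or Pol II were Dnmt3b, Tet1, Dnmt3l and Uhrf1.

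Of 11 genes of NuRD subunits that work with Mbd2 and Mbd3, 10 had H3K4me3, 9 had H3K27ac, 8 had Pol II and 1 had H3K27me3. The shares of all coding genes were 68.4%, 51.5%, 41.7% and 42.5%, in the same order. The exact intervals for H3K4me3 (58.7 to 99.8%), H3K27ac (48.2 to 97.7%) and Pol II (39.0 to 94.0%) contained these shares. That for H3K27me3 (0.23 to 41.3%) ended just below its share. These intervals cover counting error over genes only. The list was chosen with earlier results of these data known, so they are no test of a difference from the background. The remodeller genes Chd3 and Chd4 had H3K27ac scores of 8.87 and 7.10. Of the deacetylase genes, Hdac2 had H3K27ac with 6.51 and Pol II with 4.09, whereas Hdac1 had H3K4me3 alone, with a score of 4.44. Mta3, a metastasis-associated family subunit, had no listed Pol II region. Gatad2a had all 4, and Gatad2b had no listed region in the files used here.

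**Figure D5:**
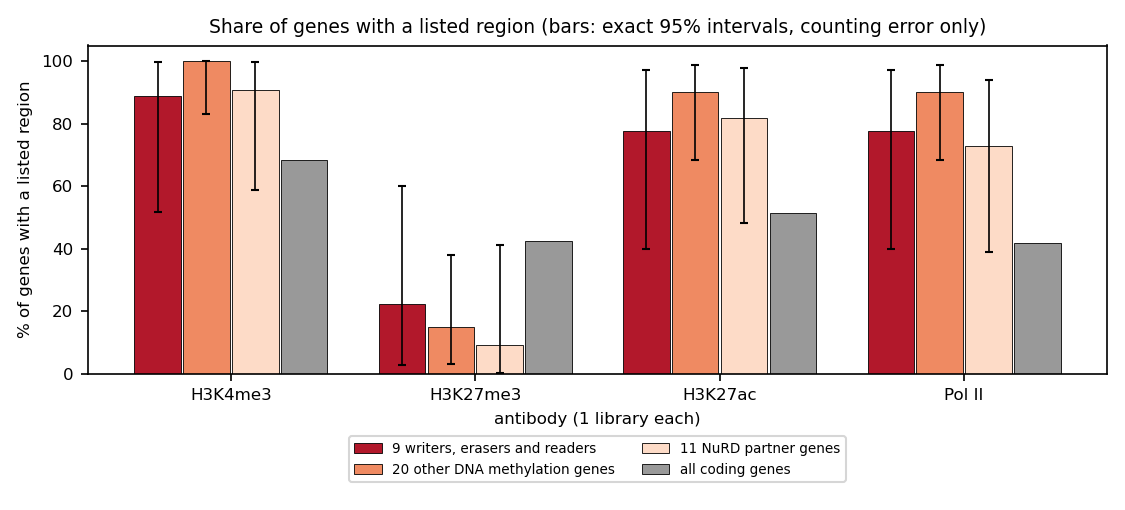
Percent of genes with a listed region (y axis) by antibody for the 9 genes, 20 other DNA methylation genes, 11 NuRD partner genes and all 21031 coding genes (grey). Error bars are exact 95% intervals that cover counting error over genes only. For the 9 genes each interval contains the grey bar. For the 20 other DNA methylation genes none does, and for the 11 NuRD partner genes all but that of H3K27me3 do. The lists were chosen with earlier results of these data known, so an interval without the grey bar is no test of enrichment. H3K27me3 is the antibody with the lowest share in the 3 gene lists.

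The genes most like each member were found by the largest difference in score percentile over the 4 antibodies, with 0 for no region. For Dnmt1 these were Jtb (1.80 points) and Hells (1.99 points), the latter a chromatin remodeller gene needed for DNA methylation. For Dnmt3a they were Sowaha (2.73) and Klhl2 (2.87), and for Dnmt3b Tcf7 (1.23) and Mob3c (1.24). For Tet1 they were Lrcol1 and Rdh8 (0.0608 each), which also had H3K27me3 alone, as had 18.2% of coding genes.

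Tet2 was nearest to Chn1 (1.68) and Sntg1 (1.83). Tet3 was nearest to Cdc42se1 and Mllt11 (0.849 each), and Mbd1 to Pqbp1 and Timm17b (1.64 each). Within each of these pairs the percentiles were identical in all 4 lists, so its genes are not separate likenesses. Mbd2 was nearest to Srsf9 (0.213) and Ate1 (1.13), and Mbd3 to Tmsb10 (3.41) and H3f3b (4.46). These are likenesses over 4 values per gene, including those set to 0 where no region was listed, and each antibody had 1 library. For Tet1 only the H3K27me3 value came from a listed region, and for Dnmt3b only those of H3K4me3 and H3K27me3. Their distances are therefore not comparable with those of genes with more listed marks.

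Markers of the sorted nuclei were checked in the same lists. All 11 medium spiny neuron genes and all 5 pan-neuronal genes had H3K4me3, H3K27ac and Pol II. H3K27me3 was also listed at 5 of the 11 (Drd1, Drd2, Adora2a, Penk and Tac1) and at 0 of the 5, against 42.5% of coding genes. Of 19 genes of astrocytes, oligodendrocytes, microglia and vessels, 13 had H3K27me3, and Mbp was the 1 gene with H3K27ac and Pol II. Read depth is unknown from these files.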

How the data were processed

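Region lists of 4 ChIP libraries (H3K4me3, H3K27me3, H3K27ac, Pol II), each made over input, were used, and the input entered only through them. Bowtie 0.12.7, MACS 1.4 and build mm9 are named in the submitters' processing notes, with no role or order. Each line gives a region, a RefSeq transcript, a gene symbol and a score that the authors deposited for the region over input, whose scale is not given in the sources used here. Per the list names, the search covered 3 kb up- and downstream of transcription start sites. No listed score was below 2, and region bounds lie on a 100 bp grid. Read depth is not known.

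Genes were found by symbol. For the background, transcripts were matched to the GRCm38.p6 gene table (between 97.4% and 98.0% of lines per list), then by symbol or older symbol. It held the 21031 protein-coding genes with a curated transcript. Percentiles were taken over distinct regions of 1 list, with ties counted to 0.5. Motifs were counted in the 250 bases before each start, in windows of 300 bases. All 9 genes, the genes sharing their regions and 2 nearest genes each were named, with other genes of the pathway by counts, and those with unusual marks or discussed as examples, some of them chosen after their values were seen. The 9 genes and the lists were chosen with earlier results of these data known. One gene of the list of other DNA methylation genes is not reported here. With 1 library per antibody no test was made. Functions were tested on simulated data. Tables were computed in Python 3.11.15 with pandas 2.3.3 and numpy 2.4.6, intervals with scipy 1.17.1, and plots with matplotlib 3.10.9. Other settings kept the upper 50% of regions by score, lists of the same length, or a shared 0.5 of the narrower region. Further settings used matching by symbol or transcript, another background, and the highest-scoring region.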

Additional observations from a re-analysis of the deposited data

How the results depend on the processing

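The count of genes with H3K4me3 and H3K27me3 went from 1 to 0 with the upper 50% of each list and also with lists of the same length (7799 regions), because the H3K4me3 score of Dnmt3b, 6.26, lay below both limits (7.05 and 6.37). In the upper 50%, H3K27ac and Pol II were each listed at 5 of the 7 genes, without Dnmt1 and Mbd1, and H3K4me3 at 7. The share of all coding genes was not computed for these shortened lists, so their counts cannot be set against a background. Requiring regions to share 0.5 of the narrower one changed neither combination. Matching by symbol or transcript, which can only add genes to a count, changed no count. Over every symbol of any list the background rose to 78.3% (H3K4me3), 58.6% (H3K27ac), 49.2% (H3K27me3) and 47.6% (Pol II). No width changed with the highest-scoring region. Only the H3K4me3 and H3K27ac widths of Dnmt3a could have changed, because the others rest on 1 listed region each. No paired analysis was possible because each antibody has 1 library. Depth, which is unknown here, limits which regions could be listed, so a gene with no listed region is not shown to lack the mark.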
